A study of Homo sapiens with 8 samples.

Results

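The genes described here are 10 human histone acetyltransferase genes, EP300, CREBBP, KAT2A, KAT2B, KAT5, KAT6A, KAT6B, KAT7, KAT8 and HAT1, taken from a list of candidate lysine acyl writers. They were not chosen by their own measured values, but earlier results of these data were known when they were chosen. All 10 had a row in the deposited expression table, which held 14526 genes. The study asked how sodium benzoate (SB), a food preservative that cells convert to benzoyl-CoA, bears on histone lysine benzoylation and on gene expression. RNA was sequenced from 8 cultures labelled HepG2, a human liver cancer cell line, grown in DMEM with serum: 4 control cultures without SB and 4 cultures treated with 10 mM SB for 24 h. The design text calls the 4 cultures of a group biological replicates. What the control cultures received in place of SB is not given in the sources used here.

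The cell type label was checked against 19 hepatocyte marker genes, and 18 of them, ALB, APOA1 and TTR included, had no row in the table used here. The remaining gene, TF, read between 0.167 and 0.210 RPKM in the controls and between 0.316 and 0.485 RPKM in the SB-treated libraries. RPKM is a read number divided by gene length and library size, so it allows levels of different genes to be compared. Of 5 fibroblast markers, COL1A1, COL3A1 and LUM had rows, with COL1A1 the most abundant, and none of 5 blood cell markers had a row. The fibroblast markers summed to 8.11 to 8.32 RPKM in control replicates 2 to 4, to 6.13 RPKM in control replicate 1 and to 6.07 to 6.29 RPKM after SB. The 3 genes did not move alike: COL3A1 fell (log2 fold change -0.48, limma adjusted p = 3.35e-05), LUM rose from 0.347 to 0.610 RPKM (0.26, adjusted p = 0.00802) and COL1A1 did not pass the test (-0.19, adjusted p = 0.133). The part of either marker list in the results was not tested. Most of these 19 hepatocyte markers thus had no measured value here, which goes against the label as far as these genes show, and the cultures are called by their treatment below.

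Histone acetyltransferases move an acetyl group from acetyl-CoA to lysines of histone tails, and several of them also accept longer acyl groups. They fall into families: EP300 (p300) and CREBBP (CBP) are paired coactivators of enhancers and promoters, KAT2A (GCN5) and KAT2B (PCAF) work in the SAGA and ATAC complexes, and KAT5, KAT6A, KAT6B, KAT7 and KAT8 form the MYST family. HAT1 acts mainly on newly made histone H4 before it is placed on DNA.

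Both directions of change occurred among the 10 genes, as in the whole table, where 33.0% of genes passed the test described below as higher and 32.6% as lower. The promoters of a pair of genes that rose (EP300 and CREBBP) and of a pair that fell (KAT7 and HAT1) are shown. The rise of CREBBP and the fall of HAT1 were smaller with a correction for GC content and length, given below. They come from the RefSeq promoter table of build GRCh38.p14, which matched 8 of the 10 genes, all but KAT6A and KAT8. They run 5′ to 3′ on the strand of the gene toward its start. Of the 250 bases before the RefSeq start, the last 57 of KAT7 and the last 13 of HAT1 lie inside the annotated gene and are not printed. Capitals mark matches, on either strand, to the letters searched, which were GGGCGG for the GC box, CCAAT for the box of that name, CCGGAAG for the core of ETS factors, TGACGT for the core of the cAMP response element, GCATGCGC for the core of NRF1, CACGTG for the E-box and TATAAA for the TATA box. The 4 regions are chr22:41092342-41092591 (plus strand) for EP300, chr16:3880714-3880963 (minus strand) for CREBBP, chr17:49788431-49788623 (plus strand) for KAT7 and chr2:171922211-171922447 (plus strand) for HAT1.
EP300: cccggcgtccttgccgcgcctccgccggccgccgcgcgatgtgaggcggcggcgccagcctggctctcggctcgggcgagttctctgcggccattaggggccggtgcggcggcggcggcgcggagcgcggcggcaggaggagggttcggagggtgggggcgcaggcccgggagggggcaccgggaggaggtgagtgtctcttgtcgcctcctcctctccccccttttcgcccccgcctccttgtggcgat
CREBBP: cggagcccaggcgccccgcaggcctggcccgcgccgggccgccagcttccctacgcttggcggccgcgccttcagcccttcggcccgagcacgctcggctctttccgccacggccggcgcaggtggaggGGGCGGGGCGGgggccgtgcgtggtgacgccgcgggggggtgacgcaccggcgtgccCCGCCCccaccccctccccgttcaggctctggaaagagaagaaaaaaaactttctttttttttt
KAT7: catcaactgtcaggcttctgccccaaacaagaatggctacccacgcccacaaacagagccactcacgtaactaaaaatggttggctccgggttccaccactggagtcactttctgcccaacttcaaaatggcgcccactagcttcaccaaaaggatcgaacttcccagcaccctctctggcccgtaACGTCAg
HAT1: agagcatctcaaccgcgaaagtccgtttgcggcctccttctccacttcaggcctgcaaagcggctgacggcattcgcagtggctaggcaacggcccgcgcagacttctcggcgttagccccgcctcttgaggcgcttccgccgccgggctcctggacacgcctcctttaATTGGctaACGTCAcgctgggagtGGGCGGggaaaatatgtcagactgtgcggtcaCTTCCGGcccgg

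The EP300 promoter held none of the 7 motifs, and that of CREBBP held 3 GC boxes, a pair of which overlap. TGACGT was found in KAT7 (64 to 59 bases before the start), in HAT1 (73 to 68 bases before the start) and in KAT5, which makes 3 of the 8 matched genes, while 10.2% of the 10651 promoters of table genes and 7.42% of all 27305 promoters held it. The ETS core was found in the same 3 genes and in 15.1% of the promoters of table genes. Of the other motifs, the GC box was in 3 of the 8 genes (67.0% of table genes) and the CCAAT box in 1 (34.8%). The NRF1 core (4.64%) and the TATA box (5.13%) were in none, and the E-box was in 1 (8.85%). No difference in share between the 8 genes and the table genes was tested. KAT6A, which was also lower after SB, had no matched promoter to search. The fall of KAT5 did not pass the test in 13 of 18 alternative fits described below. Whether a motif goes with the direction of change was not tested. In KAT7 the ETS core lies 41 to 35 bases before the start, in the part not printed, and in HAT1 25 to 19 bases before the start. The GC content of the 250 bases was 76.8% for EP300, 72.4% for CREBBP, 56.4% for KAT7 and 64.0% for HAT1, beside a median of 58.0% over all promoters. These matches are letters in a window and no binding was measured.

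The libraries held between 36990075 and 44878414 reads, recovered from the RPKM values. Control replicate 1 stood apart from the other controls. Its chi-square per degree of freedom against each of them was between 33.4 and 38.4, while every other pair of libraries within a group lay between 1.52 and 3.80 and pairs across groups between 68.5 and 113. GC content accounted for 53.9% of the variance of its deviation over 13290 genes, beside 24.3% to 35.6% for the other controls, whose deviations include control replicate 1, and 1.92% to 28.9% for the SB-treated libraries. Against the other controls, control replicate 1 had a median log2 difference of 0.25 for 1134 genes with at most 38% GC and -0.20 for 1310 genes above 62%. Among the 10 acetyltransferase genes, HAT1 (36.9% GC) was 1.24 times and KAT2B (41.2% GC) 1.19 times the mean of the other controls in this library, and KAT8 (57.0% GC) and KAT2A (59.9% GC) were 0.851 and 0.821 times that mean. KAT5, at 57.8% GC, was about equal to that mean. Values without control replicate 1 are given below for those of the 10 genes that they change most, and for only some of the partner genes that they change.

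After SB, 4 of the 10 acetyltransferase genes were higher (EP300, CREBBP, KAT2A and KAT2B) and 4 were lower (KAT7, HAT1, KAT6A and KAT5), where a call means an adjusted p below 0.05 from limma, fitted to log2(RPKM + 1) and adjusted across the whole table by Benjamini and Hochberg's method. The background was large: 33.0% of all 14526 genes were called higher (4787 genes) and 32.6% lower (4740 genes), so that a share of 4 in 10 in each direction was near that of the whole table. Without the authors' TMM scaling factors, 6 of the 10 were higher, KAT6B and KAT8 now among them, and 2 lower, KAT5 changed sign to 0.01, and 65.1% of all called genes were higher (6253 higher, 3357 lower) in place of 50.2%. Without control replicate 1, 5 were higher and 4 lower, beside 37.6% and 37.9% of all genes. The median log2 fold change of the 10 genes was 0.10, beside 0.00 over all genes, and it was 0.20 without the TMM factors. The GC and length correction brought it to 0.00, with 4 genes higher and 3 lower, beside 34.1% of all genes higher and 36.8% lower in the same fit. Bulk RNA was measured, so fewer cells of a type and less RNA per cell cannot be told apart.

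**Figure D1:**
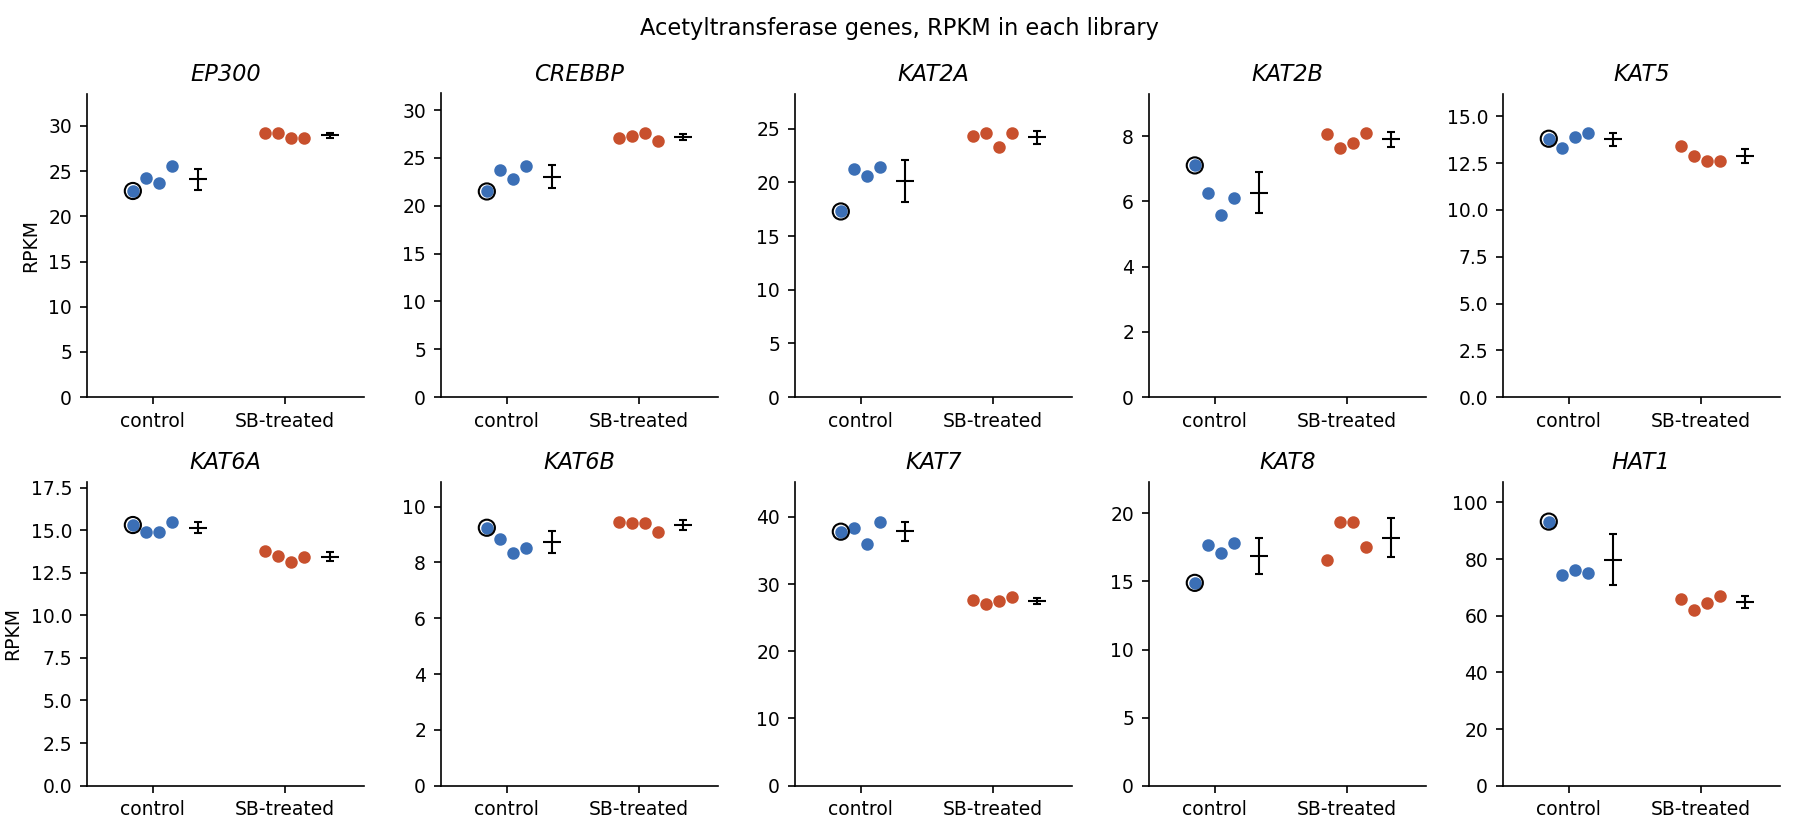
RPKM (vertical axis, from 0) of each acetyltransferase gene in the 4 control (blue) and 4 SB-treated (red) libraries, with the mean and SD of each group (n = 4) in black and control replicate 1 circled. The groups do not overlap for EP300, CREBBP, KAT2A and KAT2B, which lie higher after SB, or for KAT6A, KAT7 and HAT1, which lie lower, and they overlap for KAT5, KAT6B and KAT8.

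The control and SB-treated ranges were apart for 7 of the 10 genes (4 higher and 3 lower after SB) and overlapped for KAT5, KAT6B and KAT8. Over the whole table, 31.0% of genes were higher and 30.5% lower without overlap. For each of those 7 genes the two-sided exact permutation p was 0.0286, the smallest that 4 against 4 libraries can give. This p follows from the lack of overlap, so it adds nothing to the ranges, and it is not adjusted for the number of genes. It was 0.0571 for KAT5 and for KAT6B and 0.257 for KAT8.

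EP300 and CREBBP encode large paralogous coactivators. EP300 read 22.8, 24.2, 23.7 and 25.6 RPKM in control replicates 1 to 4 and 29.2, 29.2, 28.7 and 28.7 RPKM in SB-treated replicates 1 to 4. Each SB-treated library was above each control, and the SB-treated values lay closer together, with an SD of 0.302 against 1.19 RPKM. The mean rose by 20.1%, a log2 fold change of 0.26 ± 0.04 (SE, n = 4 per group, limma adjusted p = 0.000344). CREBBP read 21.5, 23.7, 22.8 and 24.2 RPKM in the controls and 27.1, 27.3, 27.6 and 26.8 RPKM after SB, again without overlap. Its mean rose by 18.0%, a log2 fold change of 0.23 ± 0.04 (SE, n = 4 per group, limma adjusted p = 0.00074). The gene EP300 lies on chromosome 22 (41092592 to 41180077, plus strand) and CREBBP on chromosome 16 (3725054 to 3880713, minus strand) in GENCODE release 44 on hg38. Exons of EP300 overlap those of a long noncoding RNA on the other strand, which had no row.

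Both genes are long, and long genes as a class were higher after SB. Over the 1225 genes with a counted length above 8000 bases, the median log2 fold change was 0.13 and 73.3% were positive, while over the 701 genes of up to 1000 bases the median was -0.23 and 26.2% were positive. The medians rose through each class between them, and did so without control replicate 1 as well, where they ran from -0.25 to 0.12. With each library corrected for its trend with GC content and length, EP300 stood at 0.10 (adjusted p = 0.00813), and CREBBP at 0.03 (adjusted p = 0.39), which ended its call. Over all alternatives the log2 fold change of EP300 lay between 0.10 and 0.36 and that of CREBBP between 0.03 and 0.33.

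**Figure D2:**
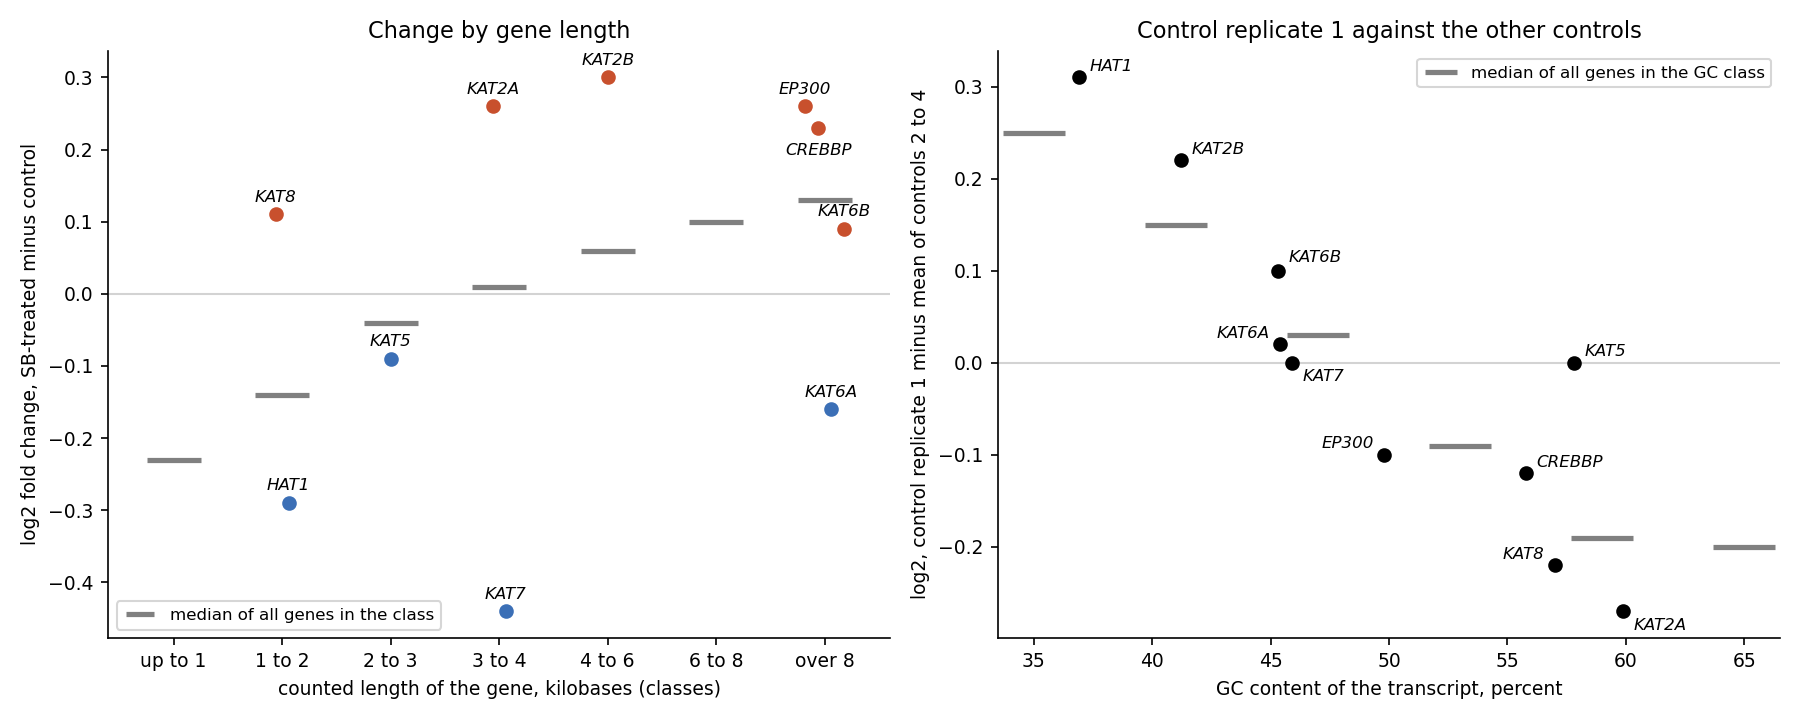
Left, log2 fold change (SB-treated minus control) of each acetyltransferase gene (points, red above and blue below 0) by class of counted length in kilobases, with the median of all genes in the class as a grey bar. Right, log2 difference of control replicate 1 from the mean of the other controls against transcript GC content, with grey bars for the median of all genes in each GC class, where HAT1 lies highest at 0.31 and KAT2A lowest at -0.27.

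KAT2A and KAT2B encode the catalytic subunits of SAGA and ATAC, of which a complex holds either of the pair. KAT2A read 17.3, 21.3, 20.6 and 21.4 RPKM in the controls and 24.3, 24.6, 23.3 and 24.6 RPKM after SB. Control replicate 1 was the lowest library, and the lowest SB-treated library was above the highest control. The mean rose from 20.2 ± 1.91 to 24.2 ± 0.649 RPKM (SD, n = 4), and the log2 fold change was 0.26 ± 0.06 (SE, limma adjusted p = 0.00522). KAT2B read 7.10, 6.25, 5.59 and 6.11 RPKM in the controls and 8.07, 7.64, 7.78 and 8.09 RPKM after SB. Here control replicate 1 was the highest control, and still below each SB-treated library. KAT2B had the largest rise of the 10 genes, 26.1%, with a log2 fold change of 0.30 ± 0.06 (SE, n = 4 per group, limma adjusted p = 0.00148). With the GC and length correction the log2 fold changes were 0.20 for KAT2A and 0.28 for KAT2B, and without control replicate 1 they were 0.19 and 0.35. Both genes passed the test in each of these fits. KAT2A is annotated on chromosome 17 (42113111 to 42121367, minus strand) and KAT2B on chromosome 3 (20040446 to 20154404, plus strand). Exons of KAT2A overlap those of another annotated protein-coding gene on the same strand, which had no row. How this bears on the reads of KAT2A was not tested.

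KAT7 (HBO1), which acetylates histones H3 and H4 in complexes with BRPF or JADE scaffolds, had the largest fall. It read 37.8, 38.3, 36.0 and 39.3 RPKM in the controls and 27.6, 27.0, 27.5 and 28.1 RPKM after SB. The highest SB-treated library was below the lowest control, and control replicate 1 lay among the other controls. The mean fell by 27.3%, a log2 fold change of -0.44 ± 0.04 (SE, n = 4 per group, limma adjusted p = 6.48e-06). That size was exceeded in the same direction by 7.66% of all genes. Under all alternatives the value lay between -0.47 and -0.34 and passed the test each time. KAT7 lies on chromosome 17 (49788624 to 49835026, plus strand), where its exons overlap those of FAM117A on the other strand. Whether counting used strand is not given in the sources used here, so reads from the overlap cannot be assigned. FAM117A read 9.54 ± 0.362 RPKM in the controls and 9.52 ± 0.612 RPKM after SB (SD, n = 4). The counted length of KAT7 was 3646 bases, while its canonical transcript in GENCODE release 44 has 9514 bases. Its RPKM level, its place among the 10 genes and its length class rest on the counted length, and its change between the groups does not. A processed pseudogene of KAT7 is also annotated, and reads shared with it could have been lost or split. A long noncoding RNA without a row also overlaps exons of KAT7, on the same strand.

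HAT1, the enzyme of newly made histone H4, was the most abundant of the 10 genes. It read 93.2, 74.3, 76.1 and 75.2 RPKM in the controls and 65.9, 61.9, 64.3 and 67.0 RPKM after SB. Control replicate 1 was far above the other controls, which were themselves above each SB-treated library. The mean fell by 18.8%, a log2 fold change of -0.29 ± 0.07 (SE, n = 4 per group, limma adjusted p = 0.00475), and without control replicate 1 the log2 fold change was -0.21 (adjusted p = 0.000201). HAT1 is short, with a counted length of 1670 bases, and the 2488 genes of 1000 to 2000 bases had a median log2 fold change of -0.14. With the GC and length correction HAT1 stood at -0.08 (adjusted p = 0.0208), and with a length correction alone it no longer passed the test, at -0.17. The gene lies on chromosome 2 (171922448 to 171983686, plus strand).

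KAT6A (MOZ) and KAT6B (MORF) are paralogs that acetylate histone H3 in complexes with BRPF scaffolds. KAT6A read 15.3, 14.9, 14.9 and 15.5 RPKM in the controls and 13.8, 13.5, 13.1 and 13.4 RPKM after SB. All 4 SB-treated libraries were below all 4 controls, and the mean fell by 11.5%, a log2 fold change of -0.16 ± 0.03 (SE, n = 4 per group, limma adjusted p = 0.00149). KAT6B read 9.24, 8.82, 8.34 and 8.52 RPKM in the controls and 9.46, 9.41, 9.42 and 9.09 RPKM after SB, and the SB-treated library of replicate 4 lay below control replicate 1. Its log2 fold change of 0.09 did not pass the test (95% interval 0.00 to 0.17, limma adjusted p = 0.0625). Without control replicate 1 it was 0.11 and passed (adjusted p = 0.00446), and with the GC and length correction it was -0.03. The value without the TMM factors was 0.18 and passed (adjusted p = 0.00155).

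Of the 4 acetyltransferase genes with a counted length above 8000 bases, KAT6A was the only gene below 0. Its class had a median log2 fold change of 0.13, and with the GC and length correction KAT6A moved further down, to -0.29 (adjusted p = 3.72e-06). Without the TMM factors it was -0.07 and did not pass the test (adjusted p = 0.0885). The counted lengths of KAT6A and KAT6B were 9936 and 8499 bases, and their GC contents 45.4% and 45.3%. KAT6B lies on chromosome 10 (74824927 to 75032624, plus strand) and KAT6A on chromosome 8 (41929479 to 42051994, minus strand). Exons of KAT6B overlap those of long noncoding RNAs on the other strand, which had no row.

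KAT5 (TIP60) is the catalytic subunit of the NuA4-type complex and acetylates histones H2A and H4. It read 13.8, 13.3, 13.9 and 14.1 RPKM in the controls and 13.4, 12.9, 12.6 and 12.6 RPKM after SB, with SB-treated replicate 1 above control replicate 2. The mean fell by 6.30%, a log2 fold change of -0.09 ± 0.04 (SE, n = 4 per group) whose limma adjusted p of 0.0498 was just inside the threshold. The call was lost in 13 of 18 alternatives, and in 1 of these, without the TMM factors, the sign turned as well (0.01, adjusted p = 0.805). KAT5 lies on chromosome 11 (65711996 to 65719604, plus strand), and its exons overlap those of RNASEH2C on the other strand, which read 18.3 ± 1.80 RPKM in the controls and 19.6 ± 0.630 RPKM after SB (SD, n = 4).

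KAT8 (MOF), the histone H4 acetyltransferase of the MSL and NSL complexes, read 14.9, 17.7, 17.1 and 17.8 RPKM in the controls and 16.6, 19.4, 19.4 and 17.5 RPKM after SB. The groups overlapped, and KAT8 had the widest spread of the 10 genes after SB, with a coefficient of variation of 7.68%. Its log2 fold change of 0.11 did not pass the test (95% interval -0.04 to 0.26, limma adjusted p = 0.187). With the GC and length correction it was 0.18 and passed (adjusted p = 0.00548), and without control replicate 1 it was 0.05 (adjusted p = 0.389). Leaving out the TMM factors gave 0.21, which passed (adjusted p = 0.0262). KAT8 lies on chromosome 16 (31114489 to 31131393, plus strand).

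**Figure D3:**
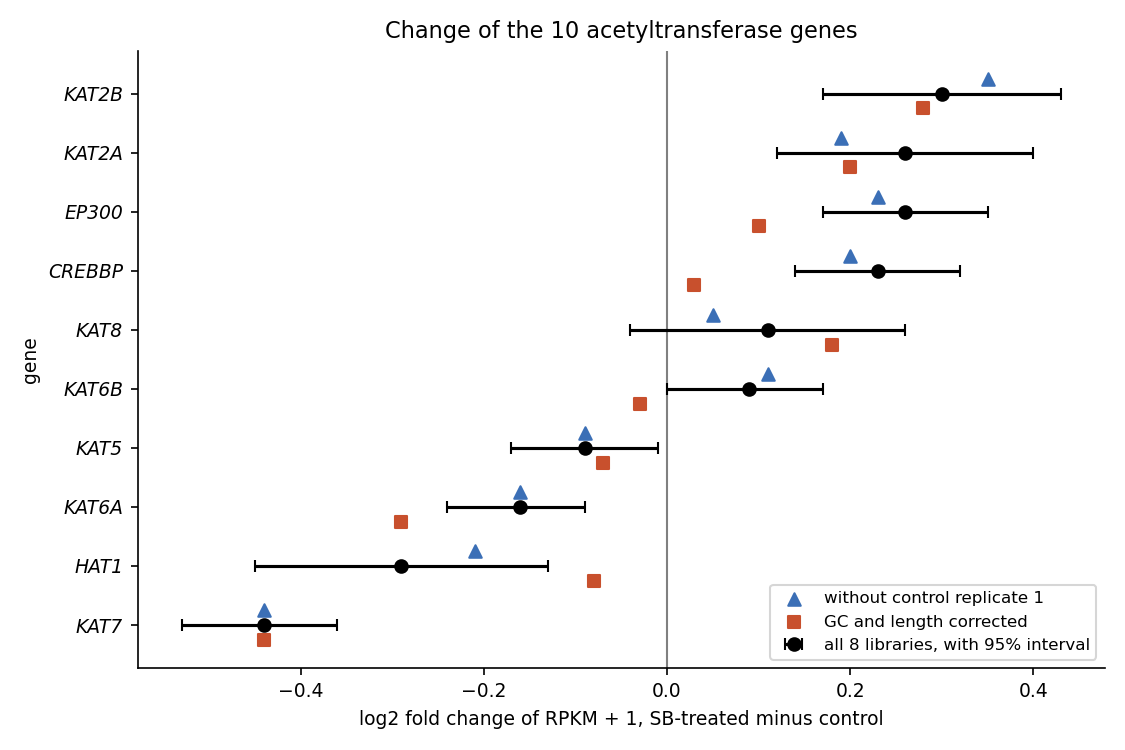
Log2 fold change of RPKM + 1 (horizontal axis, SB-treated minus control) of the 10 acetyltransferase genes with its 95% interval from limma over 8 libraries (black), without control replicate 1 (blue triangles) and with the GC and length correction (red squares). KAT7 stands at -0.44 in each of the 3 fits, CREBBP moves from 0.23 to 0.03 and HAT1 from -0.29 to -0.08 with the correction, and KAT5, which turns to 0.01 without the TMM factors, lies near 0.

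In order of mean level, the controls ran HAT1 (79.7 RPKM), KAT7 (37.9), EP300 (24.1), CREBBP (23.1), KAT2A (20.2), KAT8 (16.9), KAT6A (15.2), KAT5 (13.8), KAT6B (8.73) and KAT2B (6.26). The ranges of EP300 and CREBBP, of KAT2A and KAT8, and of KAT8 and KAT6A overlapped there, so the order within those neighbours was not separated by the spread. After SB the order differed at a single step: EP300 (28.9 RPKM) passed KAT7 (27.5 RPKM), and CREBBP (27.2 RPKM) came within the range of KAT7. KAT6A (13.4 RPKM) and KAT5 (12.9 RPKM) also overlapped after SB. In the controls 94.6% of all genes had a lower mean RPKM than HAT1, and 43.2% had a lower one than KAT2B. The RPKM values of the 10 genes summed to 253, 243, 239 and 248 in the controls and to 235, 233, 234 and 236 after SB. HAT1 made up 30.4% to 36.8% of that sum in the controls and 26.6% to 28.4% after SB.

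Ratios of genes within a library do not depend on how libraries were scaled. The ratio of KAT7 to EP300 was 1.66, 1.58, 1.51 and 1.53 in the controls and 0.945, 0.924, 0.957 and 0.982 after SB, so KAT7 was above EP300 in each control and below it in each SB-treated library. Which of the pair reads higher rests on the counted length of KAT7, and the change of the ratio does not. The ratio of KAT6A to KAT6B was 1.66, 1.69, 1.78 and 1.82 in the controls and 1.45, 1.43, 1.39 and 1.47 after SB. For both ratios the groups were apart. The 4 ratios were chosen after the values were seen, so they are given as descriptions without a test. EP300 to CREBBP gave 1.02 to 1.06 in the controls and 1.04 to 1.08 after SB, with overlap. KAT2A to KAT2B gave 2.44 in control replicate 1, 3.40 to 3.69 in the other controls and 2.99 to 3.23 after SB, so each SB-treated library lay below control replicates 2 to 4 and above control replicate 1.

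**Figure D4:**
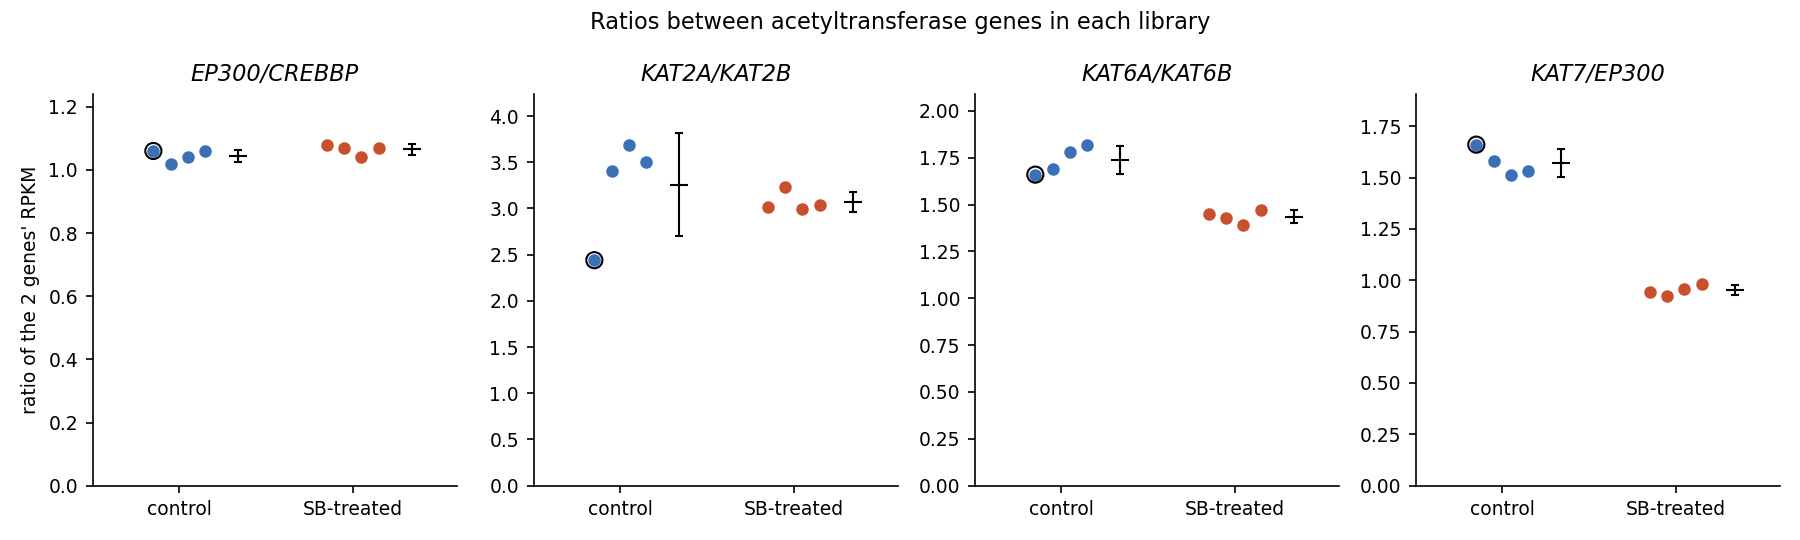
Ratio of the RPKM of the named genes in each library (vertical axis, from 0), in the 4 control (blue) and 4 SB-treated (red) libraries, with the mean and SD of each group (n = 4) in black and control replicate 1 circled. KAT7 to EP300 has means of 1.57 and 0.952 and KAT6A to KAT6B of 1.74 and 1.44, EP300 to CREBBP of 1.04 and 1.06, and KAT2A to KAT2B has control replicate 1 far below the other controls.

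Subunits that hold these enzymes in complexes were taken from lists of known partners, and all listed genes had rows. The counts below are descriptions, to be read beside the 33.0% of all genes called higher and the 32.6% called lower. In the same order, these shares were 34.1% and 36.8% with the GC and length correction, 43.0% and 23.1% without the TMM factors and 37.6% and 37.9% without control replicate 1. Of 21 SAGA and ATAC subunits, which carry KAT2A or KAT2B, 7 were higher, 6 lower and 8 did not pass the test, with a median log2 fold change of 0.03, shares near those of the whole table. Without the TMM factors 11 were higher and 3 lower (median 0.13), and with the GC and length correction 7 were higher and 5 lower. ATXN7L3, of the deubiquitinating module, rose from 15.9 ± 1.41 to 22.0 ± 0.720 RPKM (SD, n = 4, log2 fold change 0.45), TRRAP, the scaffold that binds activators, from 22.3 ± 2.40 to 29.5 ± 0.261 RPKM (0.39), and TAF6L from 6.44 ± 0.800 to 8.55 ± 0.465 RPKM (0.36). TADA2A, an adaptor next to the catalytic subunit in ATAC, fell from 12.3 ± 1.08 to 8.06 ± 0.205 RPKM (log2 fold change -0.55). SUPT20H, at 28.4 ± 1.46 and then 21.8 ± 0.563 RPKM, and TAF5L, at 21.7 ± 0.683 and then 18.6 ± 0.0557 RPKM, also fell. The largest limma adjusted p among these 6 genes was 0.00208. Corrected for GC content and length, TRRAP stood at 0.20 (adjusted p = 0.00218) and TAF5L at -0.35. Without the TMM factors TAF5L stood at -0.11 and still passed the test, beside -0.21 in the main fit.

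Of 17 subunits of the NuA4-type complex of KAT5, 11 were lower, 5 higher and MBTD1 did not pass the test, with a median log2 fold change of -0.22, beside 32.6% of all genes lower and 33.0% higher. RUVBL1, an ATPase subunit, fell from 132 ± 3.56 to 90.4 ± 0.934 RPKM (SD, n = 4, log2 fold change -0.55), VPS72, which binds the histone variant H2A.Z, from 56.5 ± 0.874 to 39.0 ± 0.530 RPKM (-0.52) and ACTL6A, an actin-related subunit, from 27.7 ± 1.66 to 21.1 ± 0.649 RPKM (-0.38). Those that rose were TRRAP, BRD8 (18.0 ± 0.473 to 22.0 ± 0.435 RPKM), DMAP1 (16.8 ± 1.59 to 20.6 ± 0.993 RPKM), EPC2 and EP400. The median counted length of these subunits was 2204 bases, with TRRAP at 12677 bases, and with the GC and length correction the median was -0.09, with 10 lower and 4 higher. Without the TMM factors 7 were lower and 5 higher, with a median of -0.13. RUVBL1, VPS72 and ACTL6A passed the test in both of these fits, with ACTL6A at -0.20 after the GC and length correction.

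Among 9 subunits of the KAT6A, KAT6B and KAT7 complexes, 4 were higher, 2 lower and 3 did not pass the test (median log2 fold change 0.09). BRPF3, a scaffold that pairs with KAT7, read 8.32, 9.07, 9.22 and 9.38 RPKM in the controls and 17.2, 17.9, 17.3 and 17.0 RPKM after SB. Its log2 fold change of 0.88 ± 0.04 (SE, n = 4 per group, limma adjusted p = 3.77e-07) was thus opposite in sign to that of KAT7. ING5, a reader subunit of the same complexes, rose from 5.43 ± 0.172 to 8.21 ± 0.268 RPKM (SD, n = 4, 0.52) and ING4 from 12.6 ± 0.476 to 13.8 ± 0.612 RPKM (0.12, and 0.27 with the GC and length correction). JADE3, a scaffold of KAT7, fell from 14.7 ± 0.538 to 11.9 ± 0.143 RPKM (-0.28), and MEAF6 from 13.5 ± 0.975 to 12.2 ± 0.489 RPKM (-0.14), a call that MEAF6 lost without the TMM factors (-0.04). With the GC and length correction 3 subunits were higher and 4 lower, with a median of -0.04, and without the TMM factors 6 were higher and 1 lower.

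Of 11 MSL and NSL subunits, partners of KAT8, 7 were higher, KANSL2 was lower and 3 did not pass the test (median log2 fold change 0.10). OGT, the O-GlcNAc transferase that joins the NSL complex, rose from 65.4 ± 2.63 to 95.1 ± 1.69 RPKM (SD, n = 4, 0.53, limma adjusted p = 2.77e-06). HCFC1 rose from 22.7 ± 3.88 to 30.4 ± 1.90 RPKM (0.42), with control replicate 1 at 17.0 RPKM and the other controls at 23.4 to 25.3 RPKM, and without that library the log2 fold change was 0.29. It was 0.18 with the GC and length correction (adjusted p = 0.026). MSL3 rose from 6.48 ± 0.572 to 7.76 ± 0.389 RPKM (0.23), and KANSL2 fell from 26.5 ± 0.610 to 21.4 ± 0.280 RPKM (-0.29). With the GC and length correction 4 were higher and 2 lower (median 0.02), and without the TMM factors 9 were higher and 1 lower (median 0.20).

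Of 5 histone chaperones listed as HAT1 partners, 4 were lower and ASF1B did not pass the test (median log2 fold change -0.22), beside 32.6% of all genes lower. RBBP7, the chaperone bound to HAT1, read 210, 188, 192 and 187 RPKM in the controls and 144, 145, 144 and 146 RPKM after SB. Its log2 fold change was -0.42 ± 0.04 (SE, n = 4 per group, limma adjusted p = 2.14e-05). ASF1A, which takes up new H3 and H4, fell from 19.7 ± 2.69 to 14.2 ± 0.253 RPKM (SD, n = 4, -0.44), and RBBP4 from 57.9 ± 0.588 to 49.7 ± 0.756 RPKM (-0.22). Without the TMM factors RBBP4 stood at -0.11 and still passed the test. With the GC and length correction 4 were lower and 1 higher (median -0.30), and without the TMM factors 3 were lower and 1 higher (median -0.11).

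Of 6 regulators of p300 and CBP and members of the INHAT complex, which masks histones from acetyltransferases, 5 were lower and CITED4, at 0.733 RPKM in the controls and 0.706 RPKM after SB, did not pass the test. Their median log2 fold change was -0.56, beside 0.00 over all genes, and it was -0.48 with the GC and length correction and -0.45 without the TMM factors, with 5 lower in each. CITED2, which binds a shared domain of p300 and CBP, read 34.0, 33.6, 34.2 and 32.9 RPKM in the controls and 14.3, 15.3, 15.3 and 15.5 RPKM after SB. Its log2 fold change was -1.11 ± 0.04 (SE, n = 4 per group, limma adjusted p = 6.89e-08), opposite in sign to those of EP300 and CREBBP. CITED1 fell from 13.9 ± 1.65 to 7.84 ± 0.369 RPKM (SD, n = 4, -0.75) and ANP32A, an INHAT subunit, from 167 ± 8.53 to 112 ± 2.27 RPKM (-0.58). SET, the other INHAT subunit listed, stood at 346 RPKM in the controls and 238 RPKM after SB (-0.54), and EID1, an inhibitor of p300, at 56.7 and 41.1 RPKM (-0.45).

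**Figure D5:**
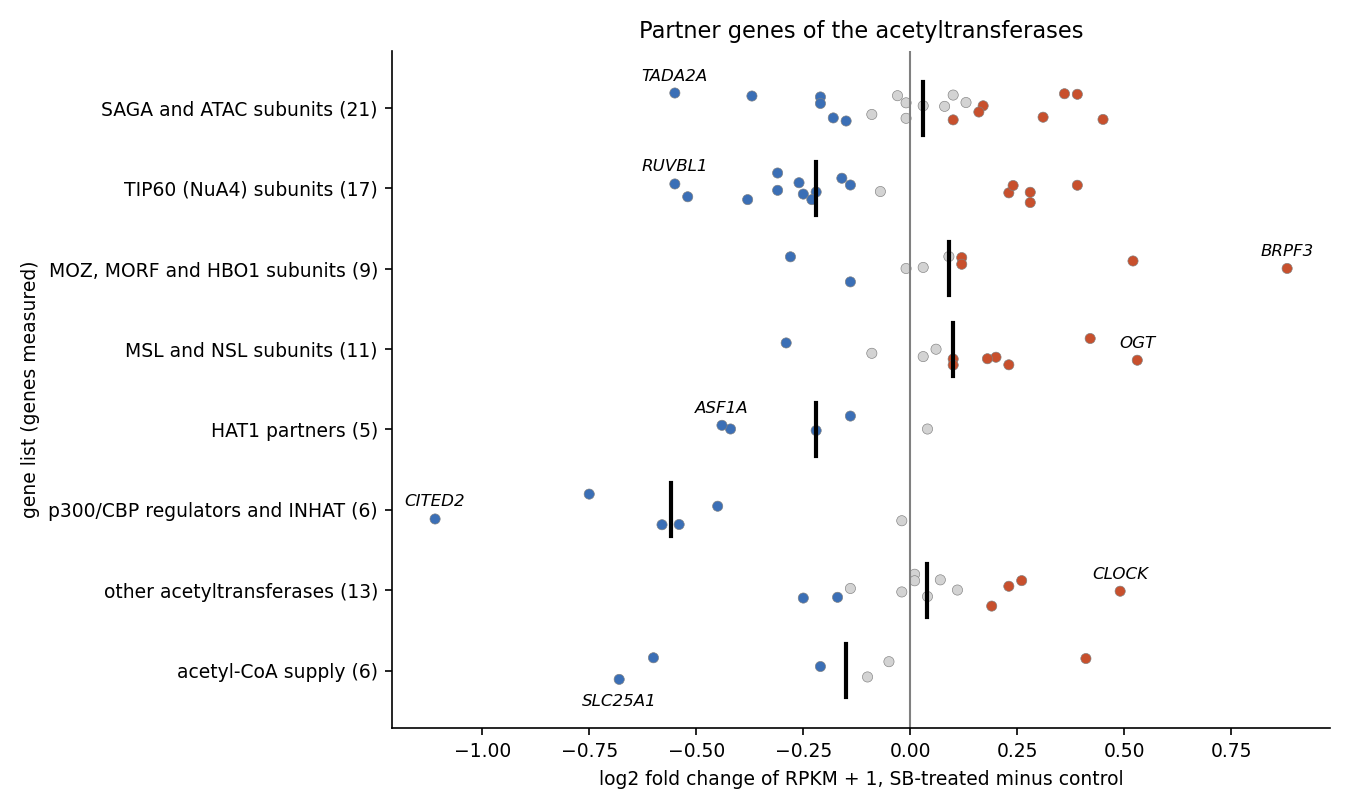
Log2 fold change of RPKM + 1 (horizontal axis, SB-treated minus control) of each measured gene in 8 partner lists, red where higher and blue where lower by limma and grey where the test was not passed, with the list's median as a black bar and the gene of the largest absolute change named. The regulators of p300 and CBP lie lowest, with a median of -0.56 and CITED2 at -1.11, and without the TMM factors each median lies higher, by about 0.1, with no change of sign.

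Among 13 other acetyltransferases, 4 were higher, 2 lower and 7 did not pass the test (median log2 fold change 0.04). The GC and length correction left 4 higher and 5 lower (median 0.00), and without the TMM factors 7 were higher and 1 lower (median 0.13). CLOCK, the circadian transcription factor, rose from 3.83 ± 0.277 to 5.76 ± 0.274 RPKM (SD, n = 4, 0.49), NCOA3 from 7.40 ± 0.448 to 9.05 ± 0.235 RPKM (0.26) and MCM3AP from 33.4 ± 2.27 to 39.1 ± 0.695 RPKM (0.23). After that correction the values were 0.17 for NCOA3 and 0.09 for MCM3AP (adjusted p = 0.0331). ELP3, of the elongator complex, fell from 13.8 ± 0.180 to 11.4 ± 0.568 RPKM (-0.25). GTF3C4 stood at 27.7 ± 0.932 and then 24.5 ± 0.439 RPKM (-0.17), a call lost without the TMM factors (-0.07).

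Acetyl-CoA is the donor used by all of these enzymes, and of 6 genes that supply or carry it 3 were lower, SLC33A1 was higher and 2 did not pass the test (median log2 fold change -0.15). SLC25A1, the mitochondrial citrate carrier, fell from 67.2 ± 7.77 to 41.3 ± 1.98 RPKM (SD, n = 4, -0.68) and ACSS1, the mitochondrial acetyl-CoA synthetase, from 11.4 ± 0.963 to 7.14 ± 0.147 RPKM (-0.60). ACLY, which splits citrate in the cytosol, stood at 126 ± 9.02 and then 109 ± 1.17 RPKM (-0.21), a call lost without the TMM factors (-0.10). SLC33A1, which carries acetyl-CoA into the endoplasmic reticulum, rose from 11.7 ± 0.851 to 15.8 ± 0.287 RPKM (0.41). Without control replicate 1, 5 were lower and 1 higher, with the GC and length correction 4 and 1, and without the TMM factors 2 and 1. SIRT2, an eraser of acyl groups, read 15.9, 18.6, 18.7 and 18.8 RPKM in the controls and 16.5, 17.1, 17.2 and 17.8 RPKM after SB. Its log2 fold change was -0.06 (limma adjusted p = 0.357), and 0.04 without the TMM factors. Without control replicate 1 it was -0.12 and passed the test (adjusted p = 0.0054). With the GC and length correction it was -0.05 and did not pass (adjusted p = 0.128).

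Across the 8 libraries, the genes whose log2(RPKM + 1) values were most like EP300 were TMUB2 (Pearson r = 0.997), KLF13 (0.996) and SNPH (0.996), among 12535 genes with a mean RPKM of at least 1. For KAT2B they were PTPN13 (0.998), MIR6723 (0.997) and ICA1L (0.995), and for KAT7 NDRG3 (0.999), GLUL (0.997) and TFB1M (0.997). These coefficients are descriptions, since the 8 libraries share the difference between the groups: 1019 genes had an r above 0.95 with EP300, 435 with KAT2B and 1336 with KAT7. NDRG3, the closest to KAT7, read 39.1 RPKM in the controls and 30.4 RPKM after SB (log2 fold change -0.35), and TMUB2, the closest to EP300, 7.74 and 10.5 RPKM (0.40).

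The fewest reads behind any value of the 10 genes were 963, for KAT2B, and the most were 12701, for CREBBP. Counting error in the controls was between 1.04% (CREBBP) and 2.88% (KAT2B) of the mean, while the coefficient of variation between control libraries was between 2.03% (KAT6A) and 11.3% (HAT1). For KAT5 the counting error, 2.80%, was larger than the coefficient of variation, 2.36%.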

How the data were processed

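Total RNA from 4 control and 4 SB-treated cultures was made into libraries with a stranded total RNA kit and sequenced as 50 bp single reads. Per the submitters' processing notes and the study's methods, the authors mapped reads to hg38 with TopHat2 version 2.1.0, counted them per gene with featureCounts version 1.5.0 and computed RPKM values with edgeR version 3.16.5. The deposited RPKM values are scaled by TMM library factors, and the authors kept genes with a CPM value above 1 in at least 2 samples. The deposited table also holds the authors' own log fold changes, mean log abundances, p-values and false discovery rates for SB against control, which were not used.

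RPKM values were read as whole multiples of the value of 1 read, which gave whole reads for 100% of 14526 genes (tolerance 0.02 reads) and the counted length of each gene. Summed over these genes, the reads were 44492795, 40629930, 36990075 and 42237686 in control replicates 1 to 4. They were 37161781, 38275766, 40642322 and 44878414 in SB-treated replicates 1 to 4. Reads outside these genes are not in these sums. Log2(RPKM + 1) values were fitted with limma 3.58.1 in R 4.3.3, without a block and with no further filter, and p-values were adjusted by the Benjamini-Hochberg method over all 14526 genes, at a threshold of 0.05. Fold changes are on the log2(RPKM + 1) scale, which understates those of low genes. Single genes were also compared by two-sided exact permutation tests. The ratios of genes were chosen after the values were seen and were not tested. The fit and the recovery of reads were also run on simulated data, and the outcomes are not given here. Gene positions and GC content came from GENCODE release 44 on hg38 (13290 genes, 91.5%, had a GC value) and promoters from RefSeq. Genes without a GC value entered the corrected fits, that for length alone included, with uncorrected values.

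The 10 genes and the partner lists were chosen with earlier results of these data known. All 10 genes were named. From each partner list the up to 3 largest rises and up to 3 largest falls among genes that passed the test were named, with CITED2 and SIRT2 in any case, and other genes named for a short count, for an overlap with a described gene or to complete a list were picked after their values were seen. Of the marker genes chosen for the cell type check, 1 is withheld and not reported here, and the counts leave it out. TRRAP, MEAF6 and WDR5 each stand in more than 1 list. Likeness was given for EP300, for the member that rose most (KAT2B) and for the member that fell most (KAT7). A set of 16 alternatives was planned (pseudocount 0.1, other scalings, a filter at a mean RPKM of 1, the replicate number as a block, voom on recovered reads, a correction for GC content and length, each library left out), and GC correction alone and length correction alone were added after seeing the data. Python 3.11.15 was used for the remaining steps.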

Additional observations from a re-analysis of the deposited data

Results flagged for a closer look

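In 3 of 24 groups of 4 libraries examined (the 10 acetyltransferase genes, CITED2 and SIRT2 in each group), the farthest library lay at a gap of more of the group's range than Dixon's limit at the 95% level, and chance gives about 1 in 20. For HAT1, control replicate 1 (93.2 RPKM) was above the other controls (74.3 to 76.1 RPKM), with a gap of 0.905 of the range. For SIRT2, control replicate 1 (15.9 RPKM) was below the other controls (18.6 to 18.8 RPKM), with a gap of 0.926 of the range. For KAT6B, SB-treated replicate 4 (9.09 RPKM) was below the other SB-treated libraries (9.41 to 9.46 RPKM), with a gap of 0.876 of the range. In the whole table, control replicate 1 lay past that limit in 2126 genes (14.6%), and the other 7 libraries in 0.324% to 2.24% of genes. Without control replicate 1 the log2 fold change of HAT1 was -0.21 in place of -0.29, and that of SIRT2 -0.12, which passed the test (adjusted p = 0.0054), in place of -0.06, which did not (adjusted p = 0.357). In the limma fit with the GC and length correction SIRT2 stood at -0.05 and did not pass (adjusted p = 0.128).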

How the results depend on the processing

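EP300, KAT2A, KAT2B and KAT7 kept their direction and passed the limma test at an adjusted p below 0.05 in all 18 alternatives, at 0.10 to 0.36, 0.19 to 0.36, 0.23 to 0.39 and -0.47 to -0.34 on the log2 scale. Of 180 values of the 10 genes, 152 kept direction and call, 17 lost the call with the sign kept, 7 gained it and 4 changed sign. The sign changed for KAT5 without the TMM factors (0.0103) and for KAT6B with the GC and length correction, without and with the replicate block (-0.0297 in both), and with length correction alone (-0.0443), and the cause was not tested. Members lower in SB-treated cells numbered 2 in place of 4 both without the TMM factors and with length correction alone. With length correction alone CREBBP (0.0856), HAT1 (-0.172) and KAT5 lost their calls. KAT5 lost its call in 13 alternatives.

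Same-numbered libraries correlated at 0.38, 0.327, 0.173 and -0.16 in their deviations. As not every correlation was above 0.1, the libraries were taken to share only a number, although the evidence is mixed: the libraries of replicates 1 and 2 correlated best with their own number and those of 3 and 4 did not. With the replicate block 4885 genes were higher and 4894 lower, beside 4787 and 4740, and of the 10 genes 4 were higher and 3 lower, with KAT5 at an adjusted p of 0.0825. Leaving out 1 library at a time gave 4311 to 5459 genes higher and 4285 to 5511 lower, in each case most without control replicate 1. At this depth, with 963 reads or more behind each value of the 10 genes, the spread between control libraries was larger than counting error for each gene but KAT5 (coefficient of variation 2.36%, counting error 2.80%).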
